A study of Mus musculus with 12 samples.

Results

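The comparison described here asks where the response to aggregate culture differed between 2 lines of bipotential mouse embryonic liver (BMEL) cells, 9A1 and 14B3, and which genes responded in one line and not in the other. For each of 12393 genes, the change from basal to aggregate culture in 9A1 was subtracted from the same change in 14B3 on the log2 scale. The comparison rests on 8 of the 12 arrays of the series, in 4 groups of 2 arrays each: 9A1 in basal culture, 9A1 in aggregates, 14B3 in basal culture and 14B3 in aggregates. The other 4 arrays, of the same lines in Matrigel, entered the model for its estimate of the spread, and their values are given for comparison where named. Both lines came from livers of CBA/J x C57Bl/6J mouse embryos at day 14 and were isolated independently, without any engineered allele named in the labels. Culture as aggregates lasted 5 days, and no culture time is given for the basal cells. Each line is 1 isolate, so a difference between 9A1 and 14B3 is a difference between these isolates, and its source in the animals, the isolation or later culture cannot be told apart. The design calls the 2 arrays of a group biological duplicates without saying more about their origin, so p-values measure the spread between these samples, which may be partly technical.

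BMEL cells are immortal epithelial cells with features of hepatoblasts, the common precursors of hepatocytes and bile duct cells. Kept attached in basal medium they grow and stay undifferentiated, and kept floating they gather into spherical aggregates, stop dividing and turn on hepatocyte genes such as those of plasma proteins. Liver and gut arise from neighbouring endoderm and share transcription factors of the HNF1, HNF4 and FOXA families as well as many proteins of the apical membrane. Brush border enzymes and transporters of the gut and kidney can therefore appear in cells of this lineage in culture.

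All values are deposited signal intensities per probe set, on a linear scale, and a gene is represented by its brightest probe set. Array medians ran from 268 to 281. To give a scale for low values, 42 measured genes of tissues such as retina, testis and muscle were taken as a reference, and the 40 of them without a called response or difference had a median level of 166 and a 90th percentile of 370. A fold change set against intensities under 370 depends on the background of the array. In each of the 4 groups 52.2% to 52.9% of all genes had a mean level under 370. Of 8 markers of hepatoblasts and liver progenitors 4 were above 370 on all 8 arrays, with Krt8 between 12432 and 14340 and Hnf4a, a master regulator of hepatocyte genes, between 2561 and 6575, the others being Krt18 and Cdh1. Dlk1, a hepatoblast surface protein, was under 370 on all 8 arrays, and Epcam, Alb and Afp were under it on at least 1 basal array. Of 10 markers of haematopoietic, endothelial, stellate and mesenchymal cells 8 were under 370 on all 8 arrays, Ptprc, the common leucocyte antigen, among them at 41.2 to 91.6. The exceptions were Csf1r, which was above it on all 8, and Kdr, which was above it on most of them. Aggregate arrays of one group resembled each other less than basal ones: the correlation over genes was 0.986 between the 2 aggregate arrays of 9A1 and 0.9844 between those of 14B3, against 0.9925 and 0.9918 in basal culture. Replicate 1 of the 14B3 aggregates correlated as well with replicate 1 of the 9A1 aggregates, at 0.9846, as with its own duplicate. Over 649 genes that separated the lines on the basal and Matrigel arrays, the mean log2 score was -0.344 and -0.165 on the 9A1 aggregate arrays and 0.241 and 0.268 on those of 14B3, so each array lay on the side of its label.

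Most of the response was shared. In 9A1 2151 genes rose in aggregates (17.4% of those tested) and 2416 fell (19.5%), and in 14B3 1942 rose (15.7%) and 2167 fell (17.5%), by limma's moderated test with a Benjamini-Hochberg adjusted p under 0.05. Of these genes, 3492 were called in both lines, 1075 in 9A1 and not in 14B3, and 617 in 14B3 and not in 9A1. A call in one line alone was seldom a difference between the lines: the difference itself passed for 19 of the 1075 genes and 12 of the 617. Over all genes it passed for 58, or 0.468%, with 37 below 0 (0.299%) and 21 above 0 (0.169%). A value below 0 means that the log2 change on aggregation was lower, that is less of a rise or more of a fall, in 14B3 than in 9A1. At an unadjusted p under 0.05 there were 822 genes. In a fit that pairs arrays of the same replicate number within each line, the difference passed for 118 genes (0.952%), 73 below 0 (0.589%) and 45 above 0 (0.363%), among them all of the 58.

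**Figure D1:**
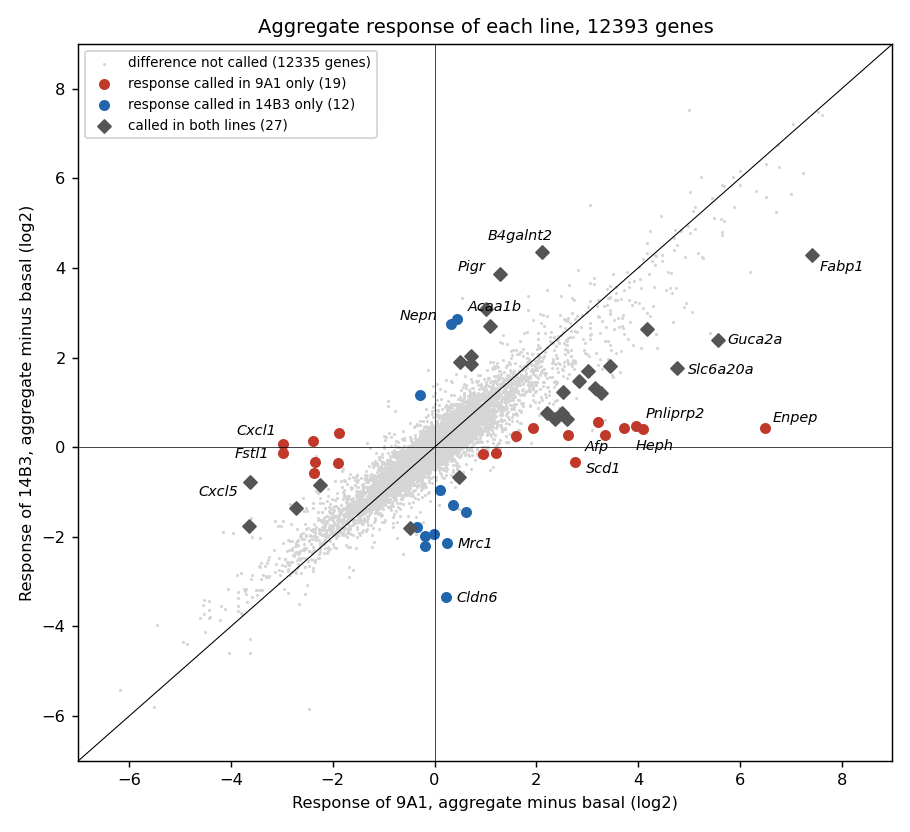
Change from basal to aggregate culture in log2 units in 9A1 (horizontal axis) and in 14B3 (vertical axis) for 12393 genes, 1 point per gene, each the difference of the means of 2 arrays, with the diagonal of equal response. Grey points mark the 12335 genes without a called difference, red circles the 19 called in 9A1 only, blue circles the 12 called in 14B3 only and dark diamonds the 27 called in both. Most genes follow the diagonal, and Enpep lies farthest from it, with a response of 6.50 in 9A1 and 0.43 in 14B3.

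The 58 genes fell into a small number of patterns. There were 12 genes that rose in 9A1 with no called response in 14B3, 7 that fell in 9A1 alone, 3 that rose in 14B3 alone and 9 that fell in 14B3 alone. A further 14 rose in both lines but more in 9A1, 7 rose in both but more in 14B3, 4 fell in both but more in 9A1, 1 fell in both but more in 14B3, and 1, Ank, rose in 9A1 and fell in 14B3. For 26 of the 31 genes with a response in a single line, the 95% interval of the other line's change lay within 1 log2 unit of 0, so a change of more than 2-fold in that line is outside the interval. The exceptions were Afp, Akap12, Mep1a, Pla2g4a and Pnliprp2. A change that does not pass is not a change of 0. The other line's interval left out 0 for Heph, Mep1a, Acot4, Akap12, Glipr2, Acaa1b, Phf10 and Pla2g4a. Except for Pla2g4a, that change had the direction of the line with the called response. In the fit paired by replicate number, 50 genes had a called response in a single line: 18 rose and 11 fell in 9A1 alone, and 9 rose and 12 fell in 14B3 alone. In that fit 34 rose in both lines but more in 9A1, 8 rose in both but more in 14B3, 16 fell in both but more in 9A1, 4 fell in both but more in 14B3, 5 rose in 9A1 and fell in 14B3, and 1 did the reverse. For all 58 genes, the 4 array-by-array responses of 1 line lay entirely on one side of the 4 of the other line, which held for 2301 genes, or 18.6%, overall. The smallest called difference was 1.06 log2 units in size, and the median standard error of a difference was 0.24, so smaller differences between the lines were mostly not detectable with 2 arrays a group.

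Each of the 8 arrays was also left out in turn. The difference kept its sign for all 58 genes in each of these fits, and 21 of the 58 passed in all 8. These are Enpep, Heph, Pnliprp2, Scd1, Pm20d1, Mep1a, Ms4a6b, Cxcl1, 2010204K13Rik, Adamtsl4, Glipr2, Nepn, Acaa1b, Cldn6, Mrc1, Phf10, Guca2a, Slc6a20a, Aldh9a1, Gdpd2 and Cxcl5, and 16 of them had a called response in a single line. For the other 37, the arrays that decided the call are named below with each gene. Leaving out a Matrigel array, which enters only through the estimate of the spread, ended the call for 11 of these 37 (Fstl1, Thbd, Ank, Pigr, Ptp4a3, Ak1, Gldc, Chac1, Glyat, Gucy2c and Myo5b, adjusted p up to 0.0712). The count over all genes ran from 23, without replicate 1 of basal 9A1, to 98, without replicate 1 of the 9A1 aggregates.

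**Figure D2:**
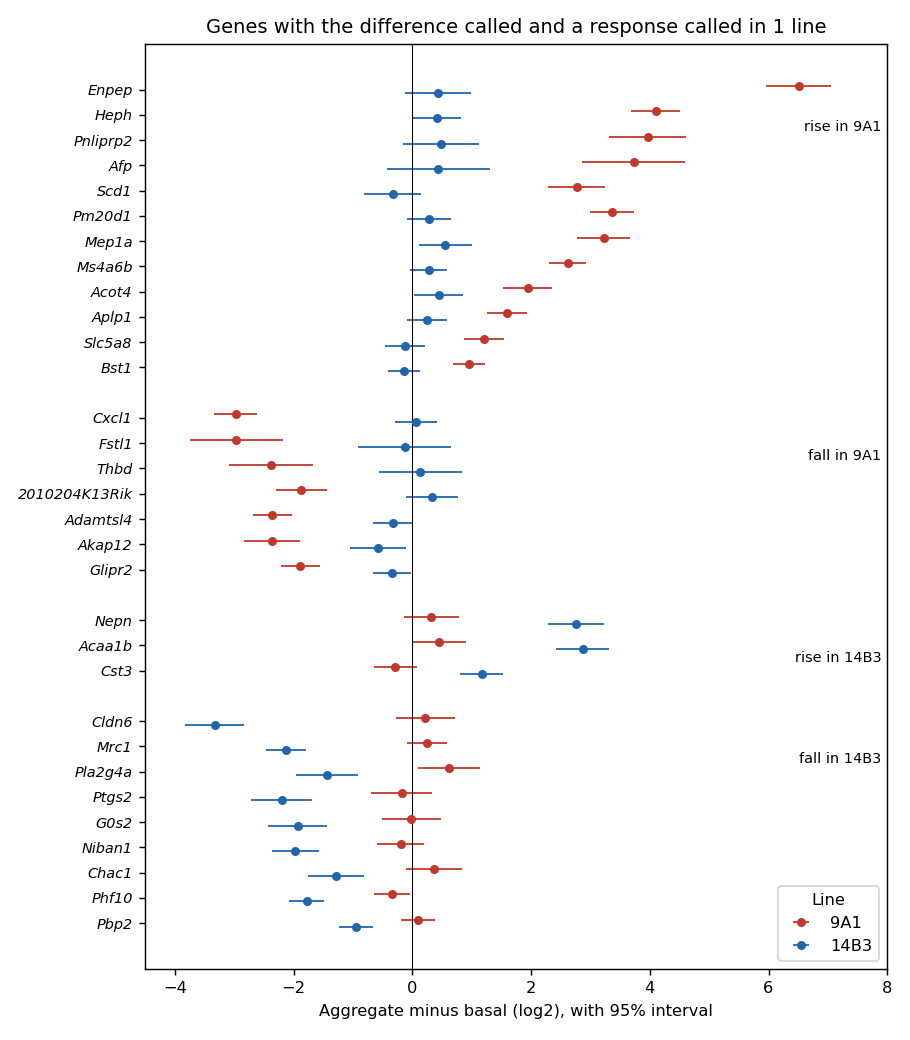
Change on aggregation in log2 units with its 95% interval for the 31 genes with a called difference and a called response in a single line (red 9A1, blue 14B3), grouped by class and ordered by the size of the difference. The intervals of the line without a called response reach or lie close to 0, and those of the other line lie well apart from it.

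Enpep (Entrez gene 13809) had the largest fitted difference of all genes tested. It encodes glutamyl aminopeptidase, a membrane enzyme of kidney and gut brush borders that trims acidic residues from peptides such as angiotensin. In basal culture its intensity was 62.8 and 71.5 on the arrays of 9A1 and 67.2 and 61.6 on those of 14B3, and in aggregates it was 5330 and 6954 in 9A1 and 97.2 and 77.9 in 14B3. All values except those of the 9A1 aggregates were under the reference median of 166, and the 9A1 aggregates averaged 16.5 times the reference level of 370. The fitted values are a 90.8-fold rise in 9A1 against a 1.35-fold change in 14B3 that did not pass (95% interval -0.12 to 0.99 log2), and the difference was -6.07 ± 0.36 (SE, 95% interval -6.86 to -5.29, n = 2 arrays per group), with an adjusted p of 2.05e-05. In Matrigel 9A1 read 404 and 761 and 14B3 86.3 and 73.7, and the difference in the response to Matrigel, which uses the same basal arrays and was called for 85 genes (0.686%), or 165 in the paired fit (1.33%), was -2.74 (adjusted p = 0.00508). In Matrigel, replicate 1 of 14B3 is labelled as 5 days and the other arrays as 10 days, so line and culture time are partly mixed there. The promoter is shown because this gene carries the widest gap between the lines. The 250 bases before the start in RefSeq, on GRCm38.p6 at chr3:129332750-129332999, minus strand, read 5′ to 3′ with motif matches in capitals:
Enpep: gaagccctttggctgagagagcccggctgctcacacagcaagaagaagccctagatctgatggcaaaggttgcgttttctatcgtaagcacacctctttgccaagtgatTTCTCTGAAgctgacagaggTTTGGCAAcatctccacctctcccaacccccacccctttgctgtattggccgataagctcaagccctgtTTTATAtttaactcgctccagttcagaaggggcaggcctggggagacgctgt
The capitals mark, in order, the STAT palindrome TTCNNNGAA, the C/EBP site TTGCNNAA read on the other strand, and the TATA box TATAAA, also on the other strand. A further TATA match runs across the annotated start and is left out of the stretch shown.

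Heph encodes hephaestin, the copper ferroxidase that helps enterocytes pass iron to the blood. Its intensities were 26.1 and 25.3 in basal 9A1 and 383 and 504 in 9A1 aggregates, against 27.4 and 27.9 and then 43.6 and 31.1 in 14B3. All 14B3 arrays and the basal 9A1 arrays were far below the reference level of 370, and the 9A1 aggregates alone stood above it. The rise was 17.1-fold in 9A1, and the change in 14B3 was 0.41 log2 units (95% interval 0.01 to 0.82), which did not pass. The difference was -3.68 ± 0.26 (adjusted p = 8.4e-05). Mep1a, which encodes a subunit of the brush border protease meprin, read 167 and 209 in basal 9A1, 1417 and 2136 in 9A1 aggregates, 211 and 231 in basal 14B3 and 322 and 326 in 14B3 aggregates. All arrays except the 9A1 aggregates stayed under 370. Its difference was -2.67 ± 0.29 (adjusted p = 0.00116), a 9.32-fold rise against 1.47-fold, and in the paired fit the rise in 14B3 passed as well (adjusted p = 0.00336).

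Scd1, the stearoyl-CoA desaturase that makes oleate, read 809 and 1132 in basal 9A1 and 5710 and 7410 in its aggregates, against 1898 and 1986 and then 1429 and 1661 in 14B3. Basal 9A1 was the lower line and aggregated 9A1 the higher, so the order of the lines turned over. The rise was 6.80-fold in 9A1, 14B3 changed by -0.33 log2 units (95% interval -0.82 to 0.15), and the difference was -3.10 ± 0.31 (adjusted p = 0.000675). Pnliprp2, a lipase related to pancreatic lipase, read 64.4 and 64.2 and then 1381 and 730 in 9A1, and 75.4 and 65.6 and then 119 and 80.9 in 14B3. Only the 9A1 aggregates were above the reference level among these 8 arrays, but in Matrigel both lines were high, with 3312 and 2193 in 9A1 and 3628 and 2760 in 14B3. The aggregate difference was -3.48 ± 0.42 (adjusted p = 0.00259), and the Matrigel difference, against the same basal arrays, was 0.10 (adjusted p = 1). Pm20d1, a secreted enzyme that joins fatty acids to amino acids, read 218 and 219 and then 2077 and 2415 in 9A1, and 135 and 156 and then 181 and 172 in 14B3. It stayed low in 14B3 throughout, with a difference of -3.08 ± 0.24 (adjusted p = 0.000112). Acot4, a peroxisomal acyl-CoA thioesterase, rose 3.84-fold in 9A1 with a difference of -1.50 ± 0.27 (adjusted p = 0.0342), which passed only without replicate 2 of the 9A1 aggregates and otherwise reached an adjusted p of up to 0.174. In the paired fit its rise in 14B3 passed too (adjusted p = 0.0406). A second Acot4 probe set gave a difference of -0.59, which did not pass.

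Afp, the fetal counterpart of albumin, read 275 and 239 in basal 9A1 and 5885 and 1957 in 9A1 aggregates, against 1477 and 1396 and then 2351 and 1601 in 14B3. It was already high in basal 14B3, and in aggregates the ranges of the lines overlapped. The rise was 13.2-fold in 9A1 and 1.35-fold in 14B3 (95% interval -0.43 to 1.30 log2), with a difference of -3.29 ± 0.56 (adjusted p = 0.0265). This call held in 2 of the 8 fits with 1 array left out, those without replicate 1 or replicate 2 of the 9A1 aggregates, and had an adjusted p of up to 0.141 in the others. Of 4 other Afp probe sets, 3 had a difference of the same sign and 1 had a value of 0.01. By contrast Alb, the main plasma protein of hepatocytes, rose in both lines, 18.2-fold and 23.7-fold, with a difference of 0.38 (95% interval -1.49 to 2.26, adjusted p = 1). The duplicate aggregate arrays were far apart in each line, with 13213 and 2529 in 9A1 and 9167 and 3228 in 14B3, replicate 1 being higher in both.

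Ms4a6b, of a family of membrane proteins best known from immune cells, read 133 and 140 and then 801 and 871 in 9A1, and 155 and 149 and then 183 and 183 in 14B3. The 9A1 aggregates alone were above 370, with a difference of -2.34 ± 0.20 (adjusted p = 0.000184). Csf1r, the receptor through which macrophages are maintained, rose in both lines but more in 9A1: it read 688 and 788 and then 3512 and 3300 in 9A1, and 529 and 641 and then 946 and 1020 in 14B3. The 9A1 aggregates stood above all other arrays. The rises were 4.62-fold and 1.69-fold, with a difference of -1.46 ± 0.21 (adjusted p = 0.00961), which was lost without replicate 1 of basal 9A1 or replicate 2 of basal 14B3 (adjusted p up to 0.0737). Both other Csf1r probe sets gave differences of the same sign, -1.45 and -1.39. Of 30 measured haematopoietic markers 25 had mean levels under 370, among them Ptprc, Itgam, Adgre1, Tyrobp and Cd68, which were under it on every array. Their summed intensity, Csf1r included, was 6579 and 7779 in basal 9A1, 10133 and 9888 in 9A1 aggregates, 7022 and 7888 in basal 14B3 and 7431 and 8347 in 14B3 aggregates. Without Csf1r the sums were 5891 and 6991, 6621 and 6588, 6493 and 7247, and 6485 and 7327 in the same order. The part of other cells in these differences was not tested. In bulk RNA a change in the number of cells of a type and a change in RNA per cell cannot be told apart.

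The remaining rises in 9A1 alone were smaller. Aplp1, an amyloid precursor-like membrane protein, read 480 and 549 and then 1532 and 1567 in 9A1, and 408 and 547 and then 588 and 531 in 14B3, with a difference of -1.35 ± 0.22 (adjusted p = 0.0228). A second Aplp1 probe set gave -0.76, which did not pass. Slc5a8, a sodium-coupled transporter of short monocarboxylates, had a difference of -1.32 ± 0.22 (adjusted p = 0.0234), and all its values, the highest being 169, were within the range of the reference genes. Bst1, an ectoenzyme that cleaves NAD, rose 1.94-fold in 9A1 with a difference of -1.10 ± 0.18 (adjusted p = 0.0204). A second Bst1 probe set gave -1.12, which did not pass. Aplp1 passed only without replicate 1 of basal 14B3 or of the 9A1 aggregates, Slc5a8 only without replicate 1 of either aggregate group, and Bst1 only without replicate 1 of the 9A1 aggregates, and the adjusted p of each reached 0.139 in the other fits.

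Among the falls in 9A1 alone, the largest difference was that of Cxcl1 (Entrez gene 14825), a chemokine that draws neutrophils. It read 545 and 490 in basal 9A1 and 73.3 and 58.5 in its aggregates, against 44.0 and 44.9 and then 44.2 and 48.5 in 14B3. Basal 9A1 was the single group above the reference level, and the aggregates of both lines were low. The fall was 7.9-fold in 9A1, the change in 14B3 was 0.06 log2 units (95% interval -0.29 to 0.42), and the difference was 3.04 ± 0.23 (95% interval 2.54 to 3.54, adjusted p = 0.000102). Cxcl5, a chemokine of the same receptor family, fell in both lines but more in 9A1. It read 341 and 479 and then 33.4 and 32.4 in 9A1, and 47.6 and 46.6 and then 26.6 and 28.5 in 14B3, which is 12.3-fold against 1.71-fold, with a difference of 2.84 ± 0.27 (adjusted p = 0.000394). In 14B3 the whole change lay far below the reference level of 370. Among 35 measured cytokines and chemokines these 2 were the only ones with a called difference (5.71%, against 0.468% of all genes).

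The 250 bases before the Cxcl1 start are shown as those of the gene with the largest difference among falls in 9A1, from RefSeq on GRCm38.p6 at chr5:90890995-90891244, plus strand:
Cxcl1: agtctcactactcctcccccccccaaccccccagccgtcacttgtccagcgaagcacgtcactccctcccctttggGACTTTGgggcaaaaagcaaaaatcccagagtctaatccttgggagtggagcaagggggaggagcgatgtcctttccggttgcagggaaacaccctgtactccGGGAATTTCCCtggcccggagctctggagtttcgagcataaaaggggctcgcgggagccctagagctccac
The first capitals are the HNF4 core CAAAGTC read on the other strand, and the second are a pair of overlapping matches, 1 on each strand, to the NF-kB site GGGANNTTC, a motif added to the search after this sequence had been seen.

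Fstl1, a secreted follistatin-like glycoprotein, read 1038 and 731 and then 173 and 71.8 in 9A1, and 78.7 and 47.8 and then 59.5 and 52.7 in 14B3. Basal 9A1 was high and the other groups low, but Matrigel 9A1 was higher still, at 2103 and 1518, against 97.3 and 83.1 in 14B3. The difference was 2.84 ± 0.51 (adjusted p = 0.0364), and a second probe set gave 3.04 with an adjusted p of 0.000753. The call on the first probe set held only without replicate 1 of basal 14B3 or either 9A1 aggregate array, and the adjusted p reached 0.181 otherwise. Thbd, thrombomodulin of the coagulation system, read 328 and 123 and then 40.8 and 36.4 in 9A1, and between 33.6 and 39.3 in 14B3. All of its values were under 370. Its difference of 2.51 ± 0.46 (adjusted p = 0.038) held only without either basal 9A1 array, with an adjusted p of up to 0.158 otherwise.

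Adamtsl4, an extracellular matrix protein bound to fibrillin, read 362 and 304 and then 70.7 and 59.1 in 9A1, and 83.5 and 68.3 and then 62.2 and 58.0 in 14B3. Basal 9A1 was higher than all other arrays, though every array was under 370. The difference was 2.03 ± 0.21 (adjusted p = 0.00099). Glipr2, a Golgi-associated protein, read 460 and 484 and then 116 and 140 in 9A1, and 170 and 163 and then 120 and 143 in 14B3, with a difference of 1.54 ± 0.21 (adjusted p = 0.0063). In aggregates its values in the 2 lines overlapped. A second Glipr2 probe set gave a difference of 0.77, which did not pass. Akap12, a scaffold that anchors protein kinase A, read 1148 and 741 and then 191 and 166 in 9A1, and 250 and 195 and then 143 and 151 in 14B3. It fell 5.18-fold in 9A1 and changed by -0.58 log2 units in 14B3 (95% interval -1.05 to -0.11, adjusted p = 0.0565), with a difference of 1.79 ± 0.30 (adjusted p = 0.0265) that held only without replicate 2 of basal 9A1, replicate 1 of basal 14B3 or replicate 1 of the 9A1 aggregates (adjusted p up to 0.138 otherwise). In the paired fit it fell in 14B3 as well (adjusted p = 0.00995). 2010204K13Rik differed from the others in that the lines were alike in basal culture: it read 949 and 808 and then 267 and 214 in 9A1, and 1008 and 864 and then 1454 and 943 in 14B3. The 9A1 aggregates were the low group, with a difference of 2.20 ± 0.28 (adjusted p = 0.00368), and in Matrigel it read 403 and 405 in 9A1 and 6504 and 6361 in 14B3.

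There were 3 genes that rose in 14B3 alone, and 9 in the paired fit. Nepn (Entrez gene 66650), nephrocan, a secreted protein with leucine-rich repeats known from the embryonic gut endoderm, read 76.1 and 84.9 in basal 14B3 and 660 and 447 in its aggregates, against 103 and 85.4 and then 105 and 130 in 9A1. No line difference was called in basal culture, and the 14B3 aggregates alone were above 370. The rise was 6.75-fold, the change in 9A1 was 0.32 log2 units (95% interval -0.15 to 0.78), and the difference was 2.44 ± 0.30 (95% interval 1.78 to 3.10, adjusted p = 0.00325). In Matrigel it read 784 and 1089 in 14B3 and 98.6 and 94.4 in 9A1. Its promoter is shown as that of the largest rise in 14B3 alone, from RefSeq on GRCm38.p6 at chr10:52391358-52391607, plus strand:
Nepn: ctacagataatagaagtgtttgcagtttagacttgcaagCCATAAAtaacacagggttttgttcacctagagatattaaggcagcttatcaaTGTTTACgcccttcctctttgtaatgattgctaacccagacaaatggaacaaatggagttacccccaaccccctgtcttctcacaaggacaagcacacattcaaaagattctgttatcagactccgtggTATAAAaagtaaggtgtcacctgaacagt
Capitals mark the CDX site TTTATNG on the other strand, the FOXA core TGTTTAC and the TATA box TATAAA, in that order.

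Acaa1b, a peroxisomal thiolase of fatty acid oxidation, read 298 and 375 in basal 14B3 and 2933 and 2028 in its aggregates, against 57.3 and 48.8 and then 80.9 and 64.3 in 9A1. All 14B3 arrays were above all 9A1 arrays, in either culture. The rise was 7.30-fold in 14B3 and 1.36-fold in 9A1 (adjusted p = 0.111), with a difference of 2.42 ± 0.29 (adjusted p = 0.00259). Of 42 measured genes of fatty acid oxidation and peroxisomes it was the only one with a called difference (0.468% of all genes), while 34 of them rose in 9A1 and 30 in 14B3 (17.4% and 15.7% of all genes). Cst3, the protease inhibitor cystatin C, read 2238 and 2629 and then 4621 and 6392 in 14B3, and 3016 and 3216 and then 2608 and 2499 in 9A1. Its difference of 1.45 ± 0.23 (adjusted p = 0.0199) held only without replicate 2 of basal 14B3 or replicate 1 of either aggregate group, and had an adjusted p of up to 0.0871 otherwise.

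Genes that fell in 14B3 alone were, in all 9 cases, higher in basal 14B3 than in basal 9A1. Cldn6 (Entrez gene 54419), a tight junction claudin of embryonic epithelia, read 1221 and 738 in basal 14B3 and 104 and 84.8 in its aggregates, against 82.2 and 96.5 and then 99.0 and 108 in 9A1. Basal 14B3 was high and the other groups were at one low level. The fall was 10.1-fold, the change in 9A1 was 0.22 log2 units (95% interval -0.28 to 0.71), and the difference was -3.55 ± 0.32 (95% interval -4.25 to -2.85, adjusted p = 0.000276). It was the only one of 37 measured junction and keratin genes with a called difference (0.468% of all genes). Its promoter is shown for contrast, from RefSeq on GRCm38.p6 at chr17:23679115-23679364, plus strand, and holds none of the motifs searched:
Cldn6: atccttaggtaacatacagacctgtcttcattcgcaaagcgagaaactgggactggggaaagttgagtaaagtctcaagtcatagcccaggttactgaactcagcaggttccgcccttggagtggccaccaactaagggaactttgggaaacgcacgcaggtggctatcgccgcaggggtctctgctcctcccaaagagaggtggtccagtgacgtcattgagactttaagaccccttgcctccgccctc

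Mrc1, the mannose receptor of macrophages and sinusoidal endothelium, read 2507 and 2055 and then 559 and 480 in 14B3, and 984 and 931 and then 1023 and 1258 in 9A1. 14B3 was the higher line in basal culture and the lower in aggregates. The fall was 4.38-fold, with a difference of -2.38 ± 0.22 (adjusted p = 0.000276). Summed haematopoietic markers were 7022 and 7888 in basal 14B3 and 7431 and 8347 in its aggregates, and 25 summed endothelial markers were 5719 and 6289 and then 5362 and 6557. Most of these markers were under 370, and their part in the fall of Mrc1 was not tested. Phf10, a subunit of a SWI/SNF chromatin remodelling complex, read 2876 and 2607 and then 852 and 741 in 14B3, and 1126 and 1139 and then 859 and 922 in 9A1. Basal 14B3 was high and the aggregates of the lines were close, with a difference of -1.44 ± 0.20 (adjusted p = 0.00649), and in the paired fit it fell in 9A1 as well (adjusted p = 0.0286).

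Pla2g4a, also of this class, encodes the cytosolic phospholipase that releases arachidonic acid, and Ptgs2 encodes cyclooxygenase 2, which turns it into prostaglandin precursors. Pla2g4a read 668 and 588 in basal 14B3 and 223 and 239 in its aggregates, against 39.4 and 62.3 and then 79.5 and 72.7 in 9A1. Ptgs2 read 728 and 464 and then 136 and 118 in 14B3, and 157 and 137 and then 143 and 117 in 9A1. Pla2g4a stayed higher in 14B3 aggregates than in 9A1 aggregates, whereas Ptgs2 met the level of 9A1. In the paired fit Pla2g4a was called in opposite directions, with a rise in 9A1 (adjusted p = 0.0262) and a fall in 14B3. The differences of Pla2g4a and Ptgs2 were -2.06 ± 0.33 (adjusted p = 0.0218) and -2.02 ± 0.33 (adjusted p = 0.0234). A second Ptgs2 probe set changed by -1.29 log2 units in 9A1 and -3.83 in 14B3, a difference of -2.54 that did not pass. The call on Pla2g4a held only without replicate 2 of basal 9A1 or either 9A1 aggregate array (adjusted p up to 0.088 otherwise), and that on Ptgs2 only without replicate 2 of basal 14B3 or of the 9A1 aggregates (up to 0.116 otherwise).

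G0s2, an inhibitor of the lipase that breaks down stored triglyceride, read 644 and 771 and then 174 and 196 in 14B3, and between 134 and 176 in 9A1, with a difference of -1.91 ± 0.32 (adjusted p = 0.0254) that held only without replicate 2 of basal 9A1 or replicate 1 of the 9A1 aggregates (up to 0.14 otherwise). Niban1, a protein induced in stressed cells, read 1700 and 1702 and then 510 and 368 in 14B3, and 182 and 186 and then 154 and 169 in 9A1. It was higher in 14B3 in both cultures, and its difference of -1.78 ± 0.26 (adjusted p = 0.0102) was lost only without replicate 1 of basal 9A1 (0.063). Chac1 is an enzyme that degrades glutathione in the unfolded protein response. It was the only called gene of 43 measured for unfolded protein and amino acid stress (0.468% of all genes were called). In the paired fit 2 of them were called (0.952% of all genes). Chac1 read 1222 and 718 and then 338 and 432 in 14B3 and between 228 and 320 in 9A1. Its difference of -1.65 ± 0.30 (adjusted p = 0.0424) held only without replicate 2 of basal 14B3 (up to 0.202 otherwise). Pbp2, a lipid-binding protein, had the smallest called difference, -1.06 ± 0.19 (adjusted p = 0.0331), and lost its call without any 1 of the 8 arrays (up to 0.178).

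Ank, a membrane protein through which pyrophosphate leaves the cell, was the one gene with called responses in opposite directions, against 6 in the paired fit, 5 of them rising in 9A1 and falling in 14B3. It read 1909 and 1838 and then 2706 and 2549 in 9A1, and 3571 and 3001 and then 2077 and 2041 in 14B3. 14B3 was the higher line in basal culture and the lower in aggregates, though the line difference was called in a single culture. The rise was 1.40-fold and the fall 1.59-fold, with a difference of -1.16 ± 0.22 (adjusted p = 0.0481) that was lost without any 1 of the 8 arrays (adjusted p up to 0.201).

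**Figure D3:**
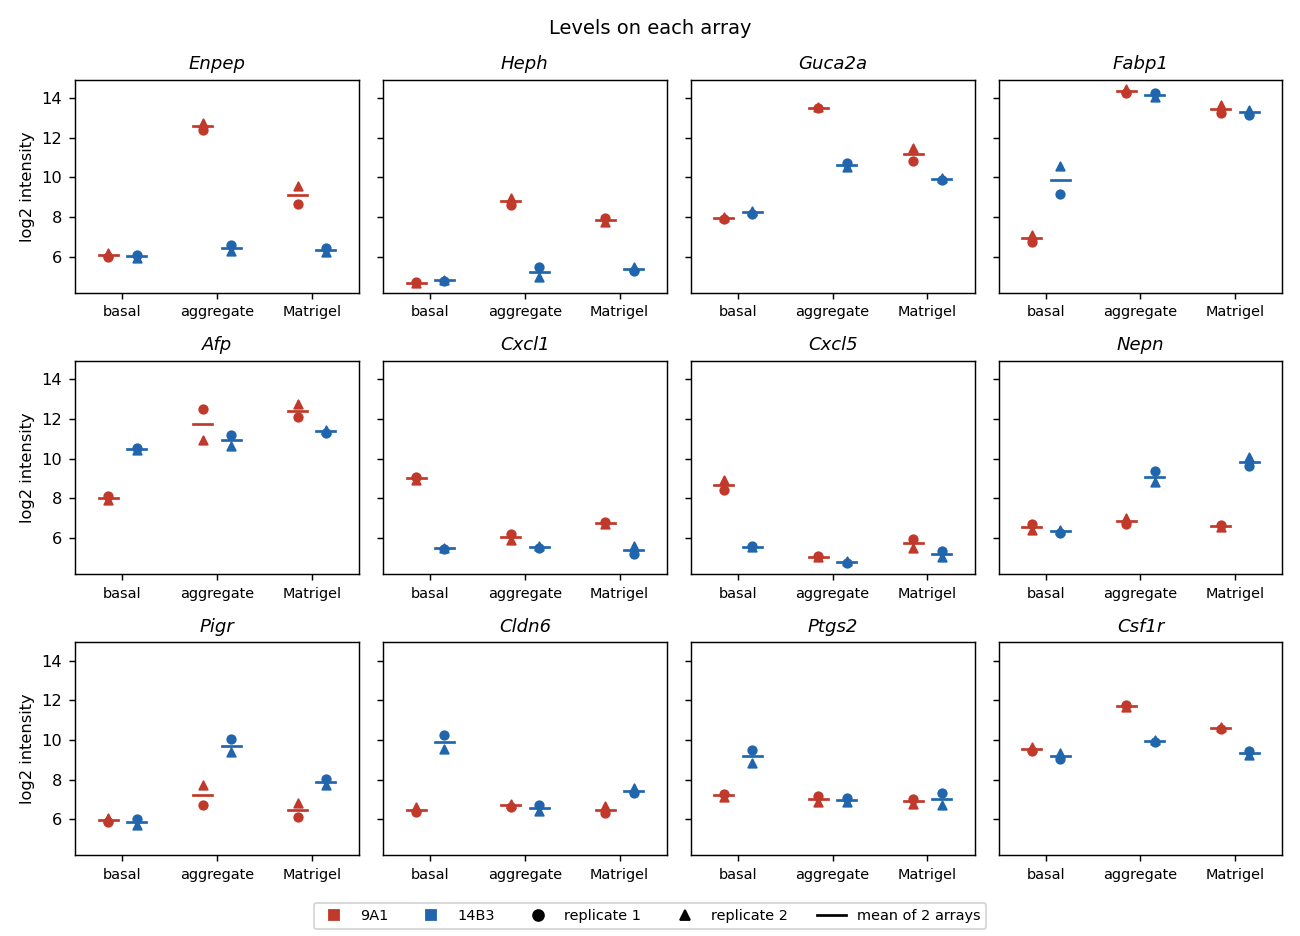
Log2 intensity on each of the 12 arrays for 12 genes, by culture (horizontal axis) and line (red 9A1, blue 14B3), with circles for replicate 1, triangles for replicate 2 and bars for the mean of 2 arrays. Enpep, Heph, Guca2a, Nepn, Pigr and Csf1r start close together in basal culture and separate in aggregates, while Fabp1, Afp, Cxcl1, Cxcl5, Cldn6 and Ptgs2 start apart and draw together.

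Of the genes that rose in both lines, 14 rose more in 9A1, and 34 in the paired fit. Guca2a encodes guanylin, the gut peptide that activates guanylate cyclase C, and Gucy2c encodes that receptor. Guca2a read 241 and 253 and then 11496 and 12024 in 9A1, and 286 and 319 and then 1689 and 1487 in 14B3. Gucy2c read 142 and 176 and then 993 and 1301 in 9A1, and 145 and 182 and then 461 and 449 in 14B3. Both were low and alike in basal culture, and in aggregates the 9A1 arrays lay above the 14B3 arrays. Guca2a rose 47.6-fold against 5.24-fold, a difference of -3.18 ± 0.27 (adjusted p = 0.000184), and Gucy2c rose 7.19-fold against 2.80-fold, a difference of -1.36 ± 0.25 (adjusted p = 0.0424). The call on Gucy2c held only without replicate 1 of the 9A1 aggregates (up to 0.234 otherwise).

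Slc6a20a, a transporter of proline and other imino acids, read 41.3 and 58.5 and then 1293 and 1379 in 9A1, and 47.2 and 54.9 and then 224 and 134 in 14B3, a difference of -3.0 ± 0.33 (adjusted p = 0.00144). The 14B3 aggregates were under 370 throughout. Amn, the partner of cubilin in vitamin uptake, read 88.0 and 95.3 and then 715 and 926 in 9A1, and 82.7 and 108 and then 208 and 272 in 14B3, a difference of -1.82 ± 0.28 (adjusted p = 0.0174). Dpp4, a brush border dipeptidyl peptidase, read 39.2 and 37.9 and then 203 and 239 in 9A1, and 34.7 and 40.2 and then 60.7 and 67.0 in 14B3, all under 370, a difference of -1.74 ± 0.29 (adjusted p = 0.0254). A second Dpp4 probe set gave -0.53, which did not pass. Dpep1, a membrane dipeptidase, rose 6.08-fold against 1.54-fold, a difference of -1.98 ± 0.29 (adjusted p = 0.012), and Myo5b, a motor of apical membrane transport, 8.11-fold against 3.24-fold, -1.33 ± 0.25 (adjusted p = 0.0474). A second Dpep1 probe set gave -1.88, which did not pass. Slc6a20a passed with each array left out. Amn held in 3 of the 8 fits, without replicate 1 of basal 14B3 or of the 9A1 aggregates or replicate 2 of the 14B3 aggregates (up to 0.0936 otherwise). Dpp4 and Myo5b passed only without replicate 1 of the 9A1 aggregates (up to 0.133 and 0.23), and Dpep1 was lost without replicate 1 of basal 9A1, replicate 2 of basal 14B3 or replicate 2 of the 14B3 aggregates (up to 0.0698).

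Of 41 measured hepatocyte enzymes and transporters 18 rose in 9A1 and 16 in 14B3 (17.4% and 15.7% of all genes). Of these 41 genes 1, Fabp1, had a called difference (0.468% of all genes). In the paired fit there were 2 (0.952% of all genes), 1 below 0 and 1 above. Fabp1, the fatty acid binding protein of liver and gut, read 106 and 138 and then 19433 and 22199 in 9A1, and 570 and 1541 and then 19279 and 17299 in 14B3. The aggregates of both lines were near the top of the array's range of 27318 and the basal values set the lines apart. The difference was -3.14 ± 0.49 (172-fold against 19.5-fold, adjusted p = 0.0174). A second Fabp1 probe set gave -2.75, which did not pass. The part of the starting levels and of the array's range in these differences was not tested. Aldh9a1, an aldehyde dehydrogenase of carnitine synthesis, read 841 and 956 and then 4209 and 5157 in 9A1, and 2493 and 2676 and then 4353 and 3656 in 14B3, with a difference of -1.75 ± 0.22 (adjusted p = 0.00368) and overlapping aggregate values. A second Aldh9a1 probe set gave -1.15, which did not pass. Xdh, xanthine dehydrogenase of purine breakdown, rose 9.72-fold against 2.31-fold (-2.07 ± 0.32, adjusted p = 0.0155). Pklr, the liver isoform of pyruvate kinase, rose 11-fold against 3.53-fold (-1.64 ± 0.30, adjusted p = 0.0387), and Slc37a4, which carries glucose 6-phosphate into the endoplasmic reticulum, 5.75-fold against 2.36-fold (-1.28 ± 0.22, adjusted p = 0.0254). Reep6, a protein of the endoplasmic reticulum, rose 18.1-fold against 6.23-fold (-1.54 ± 0.29, adjusted p = 0.0481). Fabp1 held in 4 of the 8 fits, being lost without replicate 1 of basal 9A1, replicate 2 of the 9A1 aggregates or either 14B3 aggregate array (up to 0.0931). Xdh also held in 4, being lost without replicate 1 of basal 9A1, either basal 14B3 array or replicate 2 of the 14B3 aggregates (up to 0.0873). Pklr passed only without replicate 2 of the 9A1 aggregates (up to 0.184), Slc37a4 only without their replicate 1 (up to 0.15) and Reep6 only without replicate 1 of basal 14B3 (up to 0.236).

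A larger rise in 14B3 was called for 7 genes. Pigr, the receptor that carries polymeric immunoglobulin across epithelia, read 64.0 and 51.6 and then 1050 and 661 in 14B3, and 57.1 and 65.7 and then 106 and 213 in 9A1. B4galnt2, a glycosyltransferase of gut and other epithelia, read 116 and 128 and then 2512 and 2446 in 14B3, and 86.9 and 97.4 and then 289 and 543 in 9A1. In both cases the basal levels were low in each line and the 14B3 aggregates lay above the 9A1 aggregates. The rises were 14.5-fold against 2.46-fold for Pigr (2.56 ± 0.46, adjusted p = 0.038) and 20.4-fold against 4.30-fold for B4galnt2 (2.24 ± 0.37, adjusted p = 0.0234). A second Pigr probe set gave a difference of 1.88, which did not pass. Dnase1, a secreted nuclease, rose 8.50-fold against 2.03-fold (2.07 ± 0.32, adjusted p = 0.0174), and Gdpd2, a glycerophosphodiester phosphodiesterase, 6.50-fold against 2.14-fold (1.60 ± 0.20, adjusted p = 0.00368). Gdpd2 passed with each array left out, Pigr only without replicate 2 of the 9A1 aggregates (up to 0.182), B4galnt2 only without either 9A1 aggregate array (up to 0.0995), and Dnase1 only without replicate 2 of basal 14B3 or replicate 1 of either aggregate group (up to 0.0873).

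The other 3 genes of this class were Irgm1, Gstt1 and Glyat. Irgm1, a GTPase induced by interferon, read 594 and 579 and then 2023 and 2344 in 14B3, and 1066 and 1061 and then 1370 and 1662 in 9A1. The order of the lines turned over, though the line difference was called in a single culture. The difference in response was 1.39 ± 0.21 (adjusted p = 0.012). Irgm1 was the only called gene of 34 measured interferon response genes (0.468% of all genes were called). Of the 34, 14 rose in 9A1 and 13 in 14B3 (17.4% and 15.7% of all genes). Gstt1, a glutathione transferase, read 196 and 211 and then 695 and 772 in 14B3, and 172 and 176 and then 304 and 271 in 9A1, with a difference of 1.13 ± 0.20 (adjusted p = 0.0333). It was the only called gene of 44 for oxidative stress and glutathione, with 2 called in the paired fit (0.952% of all genes), and 23 of them rose in 9A1 and 31 in 14B3 (17.4% and 15.7% of all genes). Glyat, which conjugates glycine to acyl-CoA, rose 4.11-fold against 1.64-fold (1.33 ± 0.24, adjusted p = 0.0364), although 1 of its 2 other probe sets had a difference of -0.27. Irgm1 held in 4 of the 8 fits, being lost without either basal 9A1 array, replicate 2 of basal 14B3 or replicate 2 of the 14B3 aggregates (up to 0.0752). Gstt1 passed only without replicate 1 of the 9A1 aggregates (up to 0.153) and Glyat only without replicate 2 of basal 9A1 (up to 0.202).

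Besides Cxcl5, 4 genes fell in both lines by different amounts. In the paired fit 16 genes fell more in 9A1 and 4 more in 14B3. Ptp4a3, a protein tyrosine phosphatase, fell 12.5-fold in 9A1 and 3.36-fold in 14B3 (1.90 ± 0.34, adjusted p = 0.038). Ak1, adenylate kinase, fell 4.73-fold and 1.80-fold (1.39 ± 0.26, adjusted p = 0.0459), and Fam111a, a protease, 6.64-fold and 2.55-fold (1.38 ± 0.22, adjusted p = 0.0174). Basal 9A1 was the higher line for each of these. Gldc, of the glycine cleavage system, was the reverse, with 765 and 630 in basal 14B3, 270 and 347 in basal 9A1 and between 195 and 227 in aggregates, and a difference of -1.32 ± 0.25 (adjusted p = 0.0481). Second probe sets of Ptp4a3 and Ak1 gave differences of 0.12 and 0.13. Ptp4a3 passed only without replicate 1 of the 9A1 aggregates (up to 0.201), Fam111a was lost without replicate 1 of basal 9A1, either basal 14B3 array or replicate 1 of the 14B3 aggregates (up to 0.103), and Ak1 and Gldc lost their calls without any 1 of the 8 arrays (up to 0.245 and 0.252).

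The difference in response equals the line difference in aggregates minus that in basal culture, and the 58 genes were split almost evenly by where the lines stood apart. A line difference was called in aggregates and not in basal culture for 29 genes, in basal culture and not in aggregates for 24, and in both for 5 (Acaa1b, Pla2g4a, Niban1, Mrc1 and Scd1). Over all genes a line difference was called for 236 (1.90%) in basal culture, or 358 in the paired fit (2.89%), and 189 (1.53%) in aggregates. In the paired fit the lines stood apart in aggregates only for 28 of the 58 genes, in basal culture only for 23 and in both for 7. The rises were mainly of the first kind: of 12 genes that rose in 9A1 alone, 10 differed in aggregates only, 1 in basal culture only (Afp) and 1 in both (Scd1). The falls were of the other kind: 6 of 7 falls in 9A1 alone and 6 of 9 in 14B3 alone differed in basal culture only, and the other 3 falls in 14B3 differed in both. In the line without a response, levels are set here against 370, under which 52.2% to 52.9% of all genes lay. For the rises in 9A1, 9 of 12 were under 370 in basal 14B3 and 9 in 14B3 aggregates, for the falls in 9A1, 6 of 7 were so in both 14B3 cultures, and for the falls in 14B3, 7 of 9 in both 9A1 cultures.

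**Figure D4:**
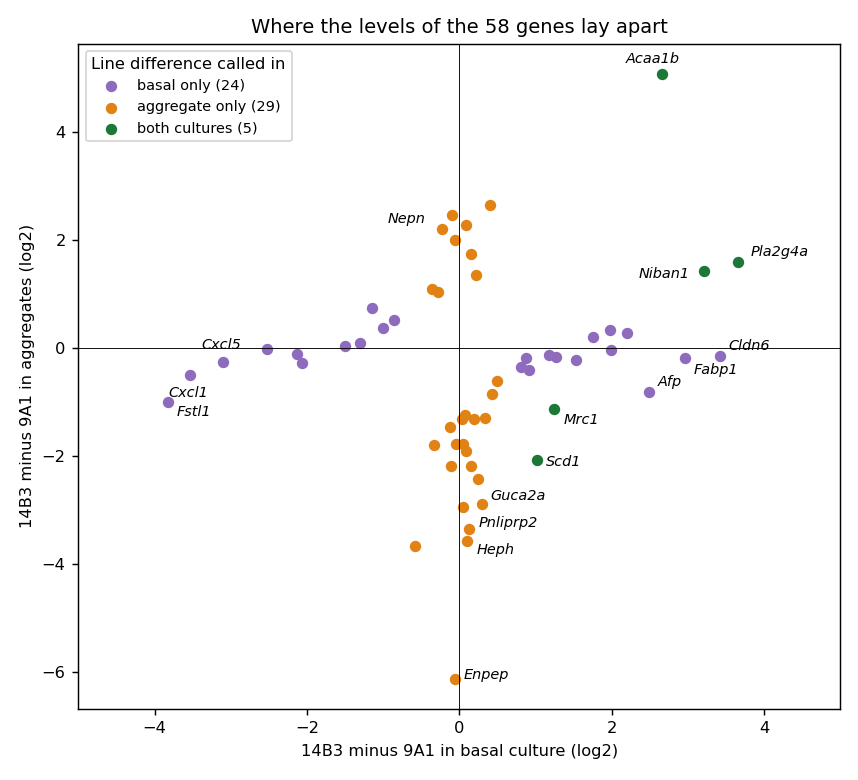
Line difference, 14B3 minus 9A1 in log2 units, in basal culture (horizontal axis) and in aggregates (vertical axis) for the 58 genes, 1 point per gene. Orange points (29) lie along the vertical line, with a line difference called in aggregates and not in basal culture. Purple points (24) lie along the horizontal line, with a line difference called in basal culture and not in aggregates. For 5 green points it was called in both.

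Gene lists of tissues and pathways, chosen with earlier results of these data known, place these genes among their kind. Of 33 measured gut brush border and intestinal genes, 4 had a called difference (12.1%, against 0.468% of all genes), Guca2a, Mep1a, Amn and Dpp4, all below 0. In this list 30 genes rose in 9A1 and 26 in 14B3 and none fell, the median change was 3.15 log2 units in 9A1 and 1.55 in 14B3, and the median difference was -0.44, with 29 of 33 below 0. Over all genes 17.4% rose and 19.5% fell in 9A1, and 15.7% rose and 17.5% fell in 14B3. The median changes were 0.11 and 0.06 over all genes and the median difference was -0.01, with 51.5% below 0. The count of 4 fell to 2 without either basal 9A1 array, replicate 2 of basal 14B3 or replicate 2 of the 9A1 aggregates.

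Among 43 measured secreted hepatocyte proteins 29 rose in 9A1 and 17 in 14B3, with a median change of 1.50 and 0.43 and a median difference of -0.45, and Afp was the only one with a called difference (0.468% of all genes). Over all genes 17.4% rose in 9A1 and 15.7% in 14B3. Ttr, the carrier of thyroxine and retinol, rose 17.2-fold and 18.3-fold (difference 0.09, 95% interval -1.08 to 1.25, adjusted p = 1), and Apoa1, of high-density lipoprotein, 51.6-fold and 33.3-fold (-0.63, -1.32 to 0.05, adjusted p = 0.812). The other Apoa1 probe sets gave differences of -1.40, -1.62 and -1.66, all outside that interval, and none of these passed. Hypoxia and glycolysis genes held no called difference in 33 measured, with 12 at an unadjusted p under 0.05 (822 of all 12393 genes). The fit paired by replicate number called 1 of them (0.952% of all genes). The difference was below 0 for 31 of 33 (51.5% of all genes), with a median of -0.56, and there were 21 rises in 9A1 against 6 in 14B3. Of 33 cholesterol and fatty acid synthesis genes 18 rose in 9A1 and 7 in 14B3, with a median difference of -0.36. Scd1 was the called gene (0.468% of all genes), with 3 called below 0 in the paired fit (0.589% of all genes). The counts of rises per line are not tests of a difference between the lines.

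**Figure D5:**
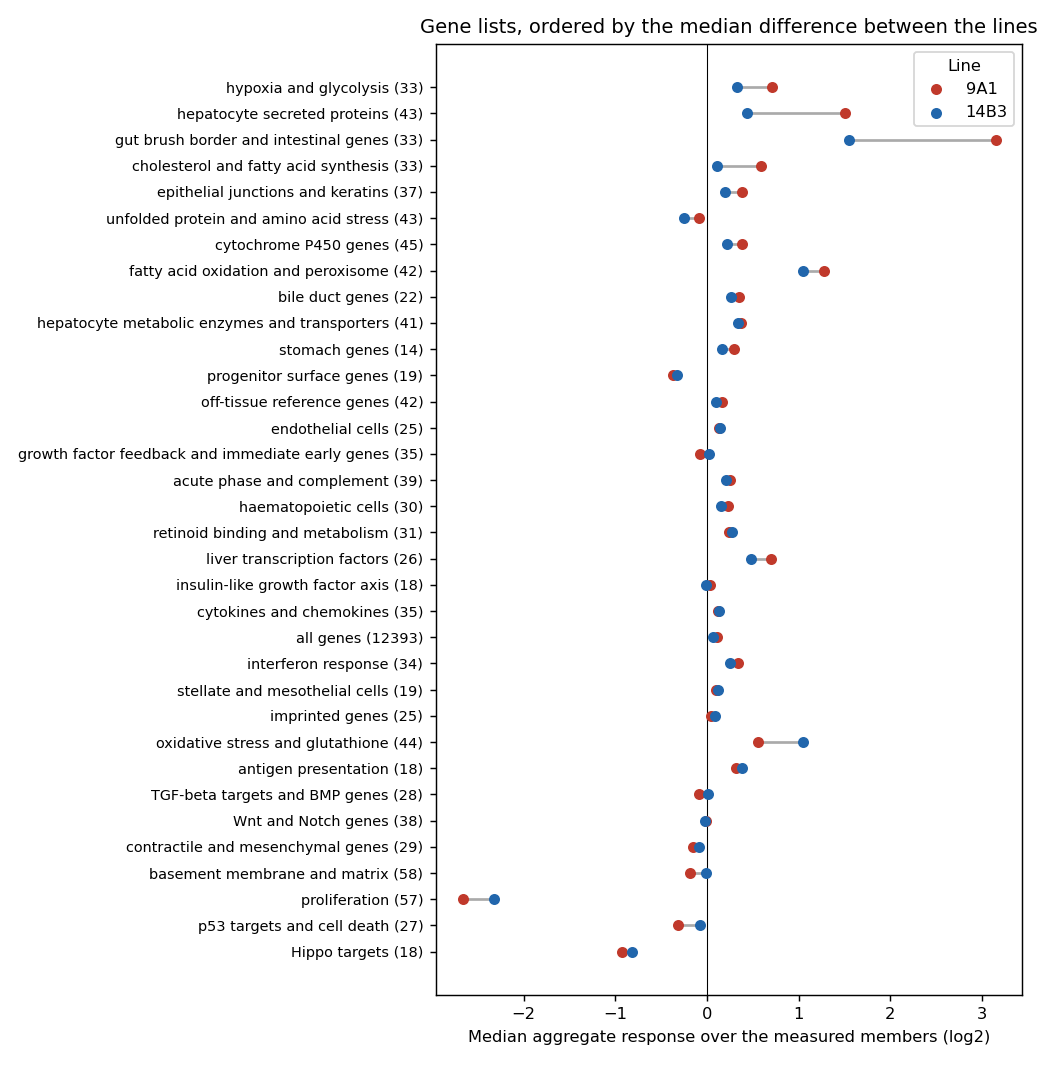
Median change on aggregation in log2 units in 9A1 (red) and 14B3 (blue) over the measured members of each gene list (number in brackets), ordered by the median difference between the lines. The gap between the medians of the lines is widest in the gut list, at 3.15 and 1.55. The median difference, by which the lists are ordered, is lowest for hypoxia and glycolysis genes, at -0.56, against -0.44 for the gut list. Most lists lie close to the medians of all genes.

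The lists of proliferation genes and of liver transcription factors held no called difference. Of 57 measured proliferation genes 55 fell in each line (19.5% and 17.5% of all genes). The median change over the list was -2.67 log2 units in 9A1 and -2.33 in 14B3. It held 0 called differences by limma, none in the paired fit, and 11 genes at an unadjusted p under 0.05 (822 of all 12393 genes). Mki67, a marker of dividing cells, fell 23-fold and 10.6-fold (difference 1.11, 95% interval 0.21 to 2.01, adjusted p = 0.53). Of 26 liver transcription factors 15 rose in 9A1 and 12 in 14B3 (17.4% and 15.7% of all genes). Among them 0 differences were called by limma, none in the paired fit, and 8 had an unadjusted p under 0.05 (822 of all 12393 genes). Hnf4a rose 1.92-fold in each line, and the interval of its difference, -0.50 to 0.50, leaves out a gap of more than 0.50 log2 units. Foxa1, a pioneer factor of endoderm, fell 3.98-fold and 2.94-fold (0.44, -0.33 to 1.21, adjusted p = 1).

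Surface and duct genes fixed for description had no called difference. Epcam, an epithelial adhesion protein of hepatoblasts and ducts, rose 34.8-fold and 29.3-fold (-0.25, 95% interval -0.95 to 0.46, adjusted p = 1). Krt7 of duct cells fell 5.38-fold and 4.44-fold (0.28, -1.01 to 1.56, adjusted p = 1), and Krt19 changed by -0.14 and -0.40 log2 units without passing (-0.25, -0.76 to 0.25, adjusted p = 1). Sox9, a duct transcription factor, fell 1.79-fold in 9A1 with a change of -0.10 in 14B3, a difference of 0.74 (0.18 to 1.29, adjusted p = 0.46). Cdh1, E-cadherin, rose 1.85-fold in 9A1 with a change of 0.20 in 14B3 (-0.69, -1.44 to 0.06, adjusted p = 0.812), and Dlk1, under 370 on all 8 arrays, had a difference of -1.0 (-1.96 to -0.04, adjusted p = 0.715) with neither response called. The intervals of these genes are wide, and for several a gap of 1 log2 unit lies inside.

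Promoter windows of 300 bases, from 250 before to 50 after the RefSeq start, were at hand for 45 of the 58 genes and 9882 of the 12393. Among the 17 windows of genes that rose in 9A1 alone or rose more in 9A1, 5 held the TATA box TATAAA on either strand (29.4%, against 10.1% of all windows), 3 the HNF1 core GTTAAT (17.6%, against 5.0%), 3 the CDX site TTTATNG (17.6%, against 8.34%) and 3 the C/EBP site TTGCNNAA (17.6%, against 9.18%). The STAT palindrome TTCNNNGAA and the AP-1 site TGANTCA were in 2 windows each (11.8%, against 7.04% and 6.27%), and the IRF pair GAANNGAAA was in 1 (5.88%, against 6.33%). For the NF-kB site GGGANNTTC, the motif added later, the count was 4 (23.5%, against 3.73%). The HNF4 core CAAAGTC was in 1 window (5.88%, against 4.2%), as was the FOXA core TGTTTAC (5.88%, against 2.68%). The TATA box and CDX site share letters and can overlap. These counts describe letters in short windows and are too few to compare.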

How the data were processed

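RNA of 12 samples was measured on Affymetrix mouse arrays, 2 arrays for each of 6 groups of line and culture. The authors deposited RMA signal intensity per probe set, made with R 2.3.1 and RMA per the submitters' processing notes. The intensities are on a linear scale from 14.4 to 27318, so their log2 was taken, with no filter on dim genes and no pseudocount. Arrays count no reads, and precision depends on how many there are.

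Of 22690 probe sets, 20380 carried 1 gene symbol in the platform annotation, which can be old, 691 several and 1555 none, and 64 were controls. Of the named probe sets 20351 were matched to a RefSeq gene table by gene ID. The brightest probe set stood for each of 12393 genes.

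With limma 3.58.1 under R 4.3.3, lmFit and eBayes were run on all 12 arrays with 1 mean per group. This left 6 degrees of freedom, and the residual SD had a median of 0.170. The difference was (aggregate minus basal in 14B3) minus (aggregate minus basal in 9A1). Tests were two-sided, with Benjamini-Hochberg adjustment across the 12393 genes and a threshold of 0.05. The code was tested on simulated data. A response in one line means that the difference passed and the response passed in that line alone.

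The change from replicate 1 to replicate 2 was correlated over genes for each of the 15 pairings of groups, and r lay between 0.1005 and 0.644. The highest values were between the lines within a culture, 0.644 in Matrigel and 0.574 in basal culture, but in aggregates that value was only 0.270. Basal with aggregate arrays of one line, which the block joins here, gave only 0.1005 in 9A1 and 0.136 in 14B3. As all values were above 0 the numbers were taken to pair the samples. The ground for pairing basal with aggregate arrays is thus weak, and a block set per culture was not fitted. Counts that a block by number (set per line) moved by over 1.5 times are given with their blocked value. Other alternatives were each array left out, 8 arrays alone, other scalings, an offset of 32, other uses of probe sets, a level filter, a size threshold, a trend and array weights.

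Named were the 6 largest non-overlapping differences per class with a response in one line, genes with opposite responses, the 4 largest per class called in both lines, the 4 largest called members of each list, and 13 genes fixed by name. Genes outside this rule (Acot4, Aplp1, Slc5a8, Bst1, Glipr2, Phf10, Pbp2, Ms4a6b, Gucy2c, Myo5b, Dpep1, Aldh9a1, Pklr, Reep6, Slc37a4 and Glyat) were named after their values were seen, so that every called gene is accounted for. Of the 58 called genes 15 belonged to a list. The genes and the 33 lists were chosen with earlier results of these data known. Plots were made in matplotlib 3.10.9 under Python 3.11.15.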

Additional observations from a re-analysis of the deposited data

Results flagged for a closer look

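The aggregate response differed between the lines, by a test of the difference itself, for 58 genes. By the same test, 22 of them stand out as the largest differences of their class or as responses in opposite directions, and their differences (14B3 minus 9A1, log2 units) are given here together. Rises in 9A1 alone gave -6.07 for Enpep, -3.68 for Heph, -3.48 for Pnliprp2, -3.29 for Afp, -3.10 for Scd1 and -3.08 for Pm20d1. Falls in 9A1 alone gave 3.04 for Cxcl1, 2.84 for Fstl1, 2.51 for Thbd, 2.20 for 2010204K13Rik, 2.03 for Adamtsl4 and 1.79 for Akap12. Rises in 14B3 alone gave 2.44 for Nepn, 2.42 for Acaa1b and 1.45 for Cst3. Falls in 14B3 alone gave -3.55 for Cldn6, -2.38 for Mrc1, -2.06 for Pla2g4a, -2.02 for Ptgs2, -1.91 for G0s2 and -1.78 for Niban1, and the opposite responses of Ank gave -1.16.

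The levels on the Matrigel arrays enter no mean of the aggregate comparison, only its estimate of the spread. A difference between the lines in the response to Matrigel was called for 85 genes (0.686%), or 165 in the paired fit (1.33%). Replicate 1 of 14B3 in Matrigel is labelled as 5 days and the other Matrigel arrays as 10 days, so line and culture time are partly mixed. Both sets of differences share the basal arrays, so the values are set side by side for single genes only. The Matrigel difference was -2.74 for Enpep (adjusted p = 0.00508), -3.06 for Ms4a6b (5.93e-05), 3.90 for 2010204K13Rik (5.93e-05) and 3.49 for Nepn (0.000324), against aggregate differences of -6.07, -2.34, 2.20 and 2.44. For Fstl1, Akap12 and Dpp4 the Matrigel differences were -0.48, -0.36 and 0.20, each with an adjusted p of 1, against aggregate differences of 2.84, 1.79 and -1.74.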

How the results depend on the processing

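All 58 differences kept their sign under every alternative run at the level of genes that tested all of them. Their number was 118 with the replicate block within each line and 118 with a block shared by both lines, which kept all 58, and the genes with a response in one line were then 50 and 51 in place of 31. Leaving out 1 array at a time gave 23 to 98 differences and 15 to 40 genes with a response in one line, with 22 of the 58 kept without replicate 1 of basal 9A1 and 46 without replicate 1 of the 9A1 aggregates. A group with 1 array left was assumed to vary like the others. Restricting the test to genes whose mean level over all arrays was above the median left 19 differences and 8 genes with a response in one line. The part of low levels in this drop was not tested. An offset of 32 on the linear scale left 44, the mean of probe sets 54, every probe set 55, the basal and aggregate arrays alone 55, median scaling 58, quantile scaling 56, a trend in the variance 73 and array weights 78. Scaling moved the median difference over all genes by at most 0.018. Without replicate 1 of both aggregate groups, an alternative chosen after seeing the data, there were 74, of which 33 were among the 58, and the cause was not tested.

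The responses numbered 7185 in 9A1 and 6371 in 14B3 over every probe set, against 4567 and 4109 over genes, and 2142 and 1825 with a change of at least 1 log2 unit. With 2 arrays a group, differences under about 1 log2 unit were rarely called.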

Other observations

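Some of the 58 genes lie close together on their chromosome in the order of measured genes. Pla2g4a and Ptgs2, which both act in prostaglandin formation and both fell in 14B3 alone, are neighbours with 0 measured genes between them. A second Ptgs2 probe set changed by -1.29 log2 units in 9A1, and in the paired fit Pla2g4a also rose in that line. Niban1, which also fell in 14B3 alone, follows after 6. On another chromosome Afp, Cxcl5 and Cxcl1 lie in a row, with 1 measured gene between the first pair and 3 between the second. For each of these genes a line difference was called in basal culture and not in aggregates. Fam111a and Glyat have 0 measured genes between them but moved differently, with a larger fall in 9A1 and a larger rise in 14B3. Other pairs were Thbd and Cst3 with 7 measured genes between them, Pbp2 and Gucy2c with 4, and Heph and Gdpd2 with 9. Nearness was looked up after the genes were known and was not tested.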
